A study of Mus musculus with 48 samples.

Results

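The genes of major histocompatibility complex (MHC) class I and class II antigen presentation were followed across sorted immune cells of B16F10 melanomas and their draining lymph nodes. The members were 32 genes chosen by symbol, 18 of the class I pathway and 14 of the class II pathway, out of 34932 genes counted. Counts were obtained for 31 of them, all 18 class I and 13 class II members. The level of Ifi30, which encodes a lysosomal thiol reductase, was not analysed here, and only its promoter was searched. B16F10 is a mouse melanoma line of C57BL/6 origin, and tumors (TIL libraries) and tumor-draining inguinal lymph nodes (TDLN libraries) came from C57BL/6J mice that were either wild type (WT) or carried floxed Yap alleles with a CD4-driven Cre recombinase (Yap-cKO), so that Yap is removed from cells that have passed through a CD4-expressing stage and not from other host cells or from the tumor. Leukocytes were sorted as CD4+ T cells, as CD8+ T cells and as CD45+CD4-CD8- cells, a mixture of what remains, from each tissue and genotype, which gave 12 groups of 4 libraries and 48 libraries in all. All mice of both genotypes bore the tumor, and the labels give no age for single libraries. The labels number the libraries of a group as replicates without naming the animals behind them, so the p-values measure the spread between these libraries.

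Class I molecules are displayed by nearly all nucleated cells and present peptides of cytosolic origin to CD8+ T cells. The peptides are cut by the proteasome, in immune cells largely by its immunoproteasome form, carried into the endoplasmic reticulum by the TAP transporter, trimmed there and loaded onto a heavy chain paired with beta-2 microglobulin, and the regulator NLRC5 drives many of these genes. Class II molecules are made chiefly by B cells, dendritic cells and macrophages, and mouse T cells make little of them. Their chains travel with the invariant chain to endosomes, where proteases degrade it, H2-DM exchanges the remaining fragment for peptide and H2-O restrains H2-DM, all under the control of the transactivator CIITA.

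Many of these promoters carry a Y box, the inverted CCAAT element (GATTGG, or CCAATC on the other strand) next to which the regulators of MHC genes assemble. Promoter sequence from RefSeq on GRCm38.p6 was found for 27 of the 32 members, and the Y box letters occurred on either strand within 250 bases before the start in 7 of 11 class II and 8 of 16 class I members, against 14.56% of 32851 promoters. Psmb9 and Tap1 lie on opposite strands with overlapping windows, and their match is the same site, counted for both genes. A match of letters describes these windows and does not show that a factor binds there. The windows below belong to class II members whose levels took different courses in the data and to B2m, the light chain of class I, with the Y box letters in capitals, read 5′ to 3′ on the strand of the gene. The Y box lay 49 bases before the start in H2-Aa, 91 in H2-DMb2, 44 in H2-Oa, 58 in H2-Ob and 54 in B2m, and H2-Eb1 held a match at 35 bases and a second one upstream of it in the other orientation.
H2-Aa, minus strand, chr17:34287847-34287932: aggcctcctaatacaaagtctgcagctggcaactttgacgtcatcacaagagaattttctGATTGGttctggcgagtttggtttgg
H2-Eb1, plus strand, chr17:34305772-34305857: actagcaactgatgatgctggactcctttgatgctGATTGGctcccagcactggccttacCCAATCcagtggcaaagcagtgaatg
H2-DMb2, plus strand, chr17:34145098-34145183: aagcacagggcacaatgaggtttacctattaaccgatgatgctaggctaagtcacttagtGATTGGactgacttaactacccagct
H2-Oa, plus strand, chr17:34092275-34092360: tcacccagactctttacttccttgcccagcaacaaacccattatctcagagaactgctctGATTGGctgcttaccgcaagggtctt
H2-Ob, plus strand, chr17:34238787-34238872: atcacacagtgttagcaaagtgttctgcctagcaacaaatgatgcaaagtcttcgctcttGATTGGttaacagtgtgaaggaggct
B2m, plus strand, chr2:122147573-122147658: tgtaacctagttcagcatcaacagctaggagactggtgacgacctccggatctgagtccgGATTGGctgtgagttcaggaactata
Letters of other elements were rarer or less even. The interferon-stimulated letters TTTCNNTTC were found in 3 class I members and 1 class II member, against 6.31% of all promoters. The kappaB letters GGGGATTCC were found in H2-K1 and H2-D1, against 0.213% of all promoters, and the short CRE-like letters TGACG in 9 class I and 2 class II members, against 17.8%. The CRE-like match of Psmb9 and Tap1 was again a shared site counted for both.

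Levels are given as CPM, in which each library's counts are divided by its size after edgeR's TMM normalization, and genes are compared with each other only in TPM, which also corrects for transcript length. The libraries held 12656302 to 24213689 counts on genes, so that 3 counts corresponded to 0.124 to 0.237 CPM. Each sort was checked on its own receptor genes. Cd4 averaged 801 CPM in WT CD4+ TDLN cells against 12.8 in WT CD45+CD4-CD8- TDLN cells, and Cd8a averaged 984 CPM in WT CD8+ TDLN cells against 6.57. The targeted gene Yap1 averaged 20.6 ± 5.26 CPM (SD, n = 4) in WT CD4+ TIL libraries against 3.11 ± 1.72 in Yap-cKO, and 20.4 ± 6.59 against 4.26 ± 1.64 in CD8+ TILs. In TDLN Yap1 was not lower in Yap-cKO, with overlapping libraries that averaged 1.68 CPM (WT) and 1.96 CPM (Yap-cKO) for CD4+ cells and 2.32 and 2.24 CPM for CD8+ cells, so the node values do not show the deletion. Which part of the gene was counted is not given in the sources used here. In the tumors, Yap1 moved with the summed CPM of melanoma marker genes, which ranged from 5682 to 17744 in WT CD4+ TIL libraries and from 169 to 2349 in Yap-cKO. The same sum was 3897 to 13969 in WT CD8+ TIL libraries and 41.1 to 2543 in Yap-cKO. Genes of the Y chromosome were also split by genotype, since they were present in WT replicates 1 to 3 and near 0 in WT replicate 4 and in all Yap-cKO libraries.

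Class II genes were first set against cell type. H2-Aa, the alpha chain of I-A, read 15463, 6419, 11184 and 8635 CPM in the WT CD45+CD4-CD8- TDLN libraries and 48.2, 45.8, 91.5 and 32.9 CPM in WT CD4+ cells of the same node. Every CD45+CD4-CD8- library was thus far above every T-cell library. Cd74, the invariant chain, was the most abundant member by length-corrected level in those CD45+CD4-CD8- libraries, at a mean of 44520 TPM, followed by H2-Ab1 at 18217, H2-Aa at 13568 and H2-Eb1 at 8443 TPM. The exchange factors stood lower, at 2336 TPM for H2-DMb2, 958 for H2-Ob, 875 for H2-DMa, 691 for H2-Oa and 670 for H2-DMb1, and the transactivator Ciita at 204 TPM. The plot of class II levels by library shows this separation for 6 members.

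**Figure D1:**
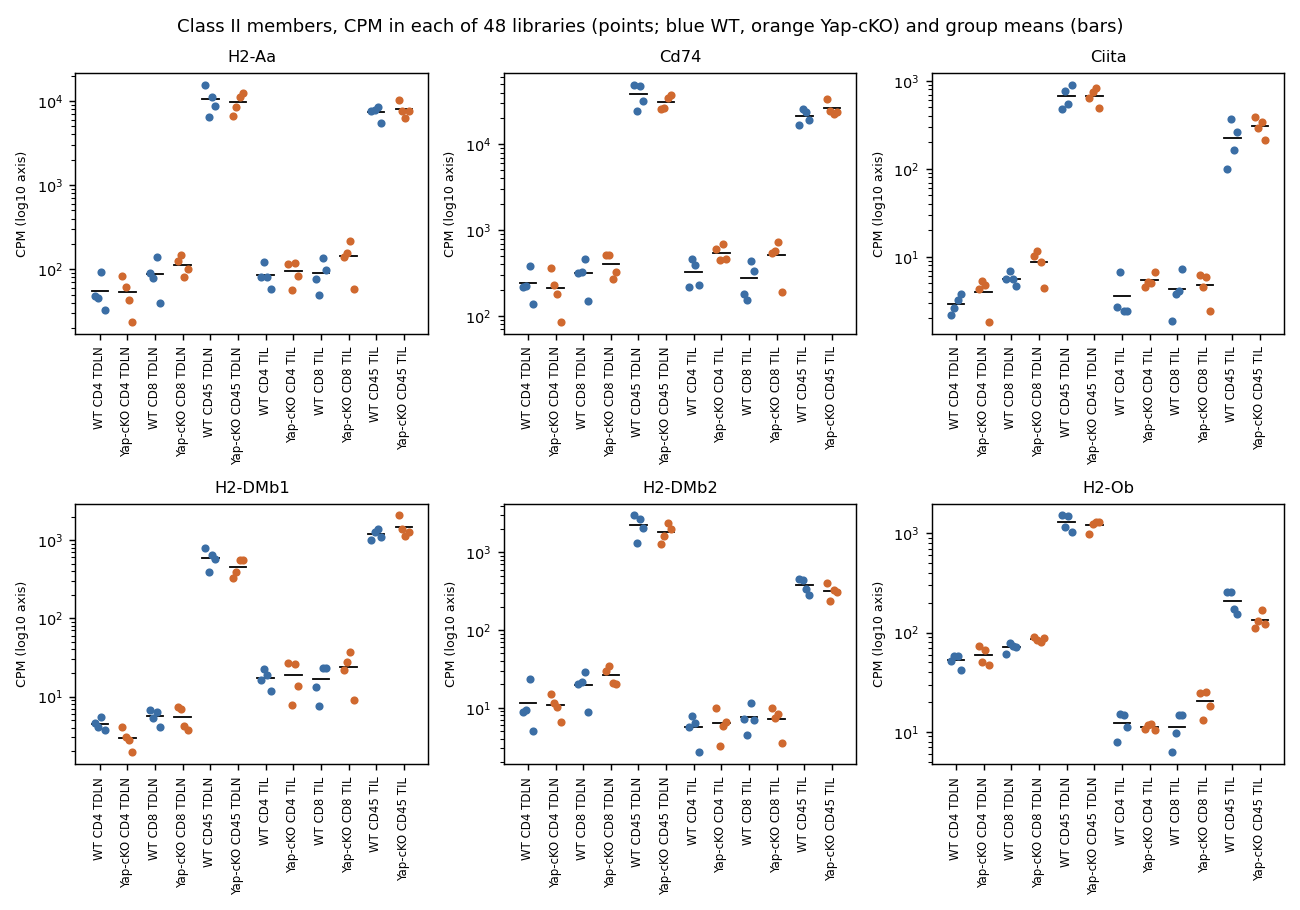
CPM (log10 axis) of H2-Aa, Cd74, Ciita, H2-DMb1, H2-DMb2 and H2-Ob in each of 48 libraries, ordered by tissue, cell type and genotype, with points for libraries (blue WT, orange Yap-cKO) and bars for group means. The CD45+CD4-CD8- libraries stood above the T-cell libraries for each of these genes, and H2-DMb2 and H2-Ob of the CD45+CD4-CD8- cells were lower in TIL than in TDLN while H2-DMb1 was not.

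The difference between CD45+CD4-CD8- cells and the mean of CD4+ and CD8+ cells was tested across all genes, and a gene was called where its adjusted p was below 0.05 and it differed by more than 1 on the log2 scale. In WT TDLN 12 of 13 class II members were called higher in CD45+CD4-CD8- cells and 0 lower, against 14% of all genes called higher and 11.2% called lower. Their median log2 fold change was 6.91, against -0.02 over all genes. The largest were Ciita at 7.37 (SE 0.23), H2-Ab1 at 7.31 (SE 0.45), H2-Eb1 at 7.26 (SE 0.38), H2-Aa at 7.25 (SE 0.41) and H2-DMb2 at 7.24 (SE 0.44), each with an edgeR adjusted p of at most 3.42e-08. In WT TIL all 13 class II members measured were called higher, against 15.7% of genes higher and 18.6% lower, with a median of 5.92 against -0.07 over all genes. The member not called in TDLN was Ctsl, cathepsin L, whose log2 fold change was -0.01 (SE 0.44) there and 1.79 (SE 0.31) in TIL.

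The class II members did not stand equally far below the CD45+CD4-CD8- level in T cells. In WT CD4+ TDLN cells the chains H2-Ab1, H2-Eb1 and H2-Aa were at 0.497%, 0.514% and 0.524% of the CD45+CD4-CD8- level, beside 0.516% for the summed B cell markers, 0.975% for the macrophage and monocyte markers and 8.56% for the dendritic cell markers. In WT CD8+ TDLN cells they were at 0.809%, 0.845% and 0.835%, beside 1.06% for the B cell, 1.72% for the macrophage and monocyte and 10.5% for the dendritic cell markers. Of the exchange factors, H2-DMa, H2-Oa and H2-Ob stood higher, at 4.38%, 2.74% and 4.02% in CD4+ cells and 8.29%, 9.29% and 5.43% in CD8+ cells. The beta chain genes of H2-DM did not. H2-DMb1 and H2-DMb2 were at 0.746% and 0.509% in CD4+ cells and 0.941% and 0.873% in CD8+ cells. Cathepsin S (Ctss), an endosomal protease, was at 28.7% in CD4+ and 22.7% in CD8+ cells, and Ctsl at 89.9% and 116%. Lgmn, the asparagine endopeptidase legumain, differed between the T cells themselves, with 27.0, 40.8, 56.6 and 27.6 CPM in WT CD4+ TDLN libraries and 3.58, 3.51, 6.34 and 4.05 in WT CD8+ TDLN libraries, which did not overlap. In bulk RNA a small number of class II-positive cells in a T-cell sort and a low level in every T cell cannot be told apart. In the WT TIL libraries the chains were at 1.17% to 1.41% of the CD45+CD4-CD8- level in CD4+ cells and at 1.23% to 1.40% in CD8+ cells, beside 1.77% and 1.66% for the summed macrophage and monocyte markers, 0.766% and 1.61% for the B cell markers and 6.16% and 8.51% for the dendritic cell markers.

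Few class I members were called between the cell types. By length-corrected level the most abundant in WT CD4+ TDLN cells were H2-K1 at 5963 TPM, H2-D1 at 4942 and B2m at 4349, which encode the classical heavy chains and the shared light chain. H2-T23, the nonclassical heavy chain Qa-1, was at 509 TPM and H2-M3, which presents formylated peptides, at 64.2. In WT TDLN the median class I difference between CD45+CD4-CD8- and T cells was -0.20, and 1 of 18 members was called higher and 2 lower, against 14% and 11.2% of all genes. H2-M3 was higher in CD45+CD4-CD8- cells (log2 fold change 1.27, SE 0.21, adjusted p = 0.000367). Nlrc5, the class I transactivator, was lower (-1.89, SE 0.17, adjusted p = 1.25e-06), with 45.7, 55.1, 70.2 and 50.6 CPM in CD45+CD4-CD8- cells against 160, 147, 145 and 202 in CD4+ and 272, 247, 241 and 288 in CD8+ cells. The groups did not overlap. The heavy chains beside it differed by -0.73 (H2-K1, SE 0.30) and -0.19 (H2-D1, SE 0.30), neither past the test. Psme2, a subunit of the PA28 proteasome activator, was also called lower (-1.03, SE 0.26), but fell short of the fold limit with the replicate number as a block (-0.97), with effective length offsets (-0.99) or without 1 of several libraries. In WT TIL the class I members were shifted toward CD45+CD4-CD8- cells, with 17 of 18 positive, 11 at an adjusted p below 0.05 and a median of 0.80 against -0.07 over all genes. Past the fold limit 2 were called higher and 0 lower, against 15.7% and 18.6% of all genes, H2-M3 at 1.07 (SE 0.30) and the loading factor tapasin, Tapbp, at 1.03 (SE 0.33), and both fell under the fold limit when WT CD4+ TIL replicate 1 was left out (0.98 and 0.93) or WT CD8+ TIL replicate 1 or 2. Tapbp was also lost without WT CD45+CD4-CD8- TIL replicate 4 (0.91, adjusted p = 0.0649). With the replicate number as a block they were at 1.23 and 1.15, and the immunoproteasome subunits Psmb8 (1.10, SE 0.23) and Psmb10 (1.06, SE 0.18) were called with them, against 0.96 and 0.97 without the block. The T-cell libraries of WT TIL held more RNA of melanoma genes than the CD45+CD4-CD8- ones. The melanoma sum averaged 11123 CPM in WT CD4+, 10126 in WT CD8+ and 1530 in WT CD45+CD4-CD8- TIL libraries. Its part in the class I shift of WT TIL was not tested. Reads of H2-K1, H2-D1 and H2-T23 could be split with near copies, as 24.2%, 26.8% and 25.3% of their 31-base stretches occurred in another annotated gene, and for Psme2 the share was 33.5%.

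Among 42 further genes of the pathway that are not members (class I paralogs, RFX and CREB factors, interferon gamma signalling, lysosomal proteases and ubiquitin ligases), 8 were called higher and 8 lower in CD45+CD4-CD8- cells of WT TDLN (14% and 11.2% of all genes), and 13 higher and 2 lower in WT TIL (15.7% and 18.6%). The largest in the node were H2-Eb2, a class II beta chain, at a log2 difference of 7.46 and March1, the ligase that turns over class II, at 6.74. Ctsh, an endosomal cathepsin, was at 7.07 and Irf8, an interferon regulatory factor of myeloid and B cells, at 4.49.

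Tumor and node were compared next. Within CD45+CD4-CD8- cells the class II chains did not change past the threshold in either genotype, while the exchange factors split. H2-Ob read 1515, 1168, 1503 and 1036 CPM in WT TDLN and 256, 256, 171 and 153 in WT TIL, and H2-Oa 675, 301, 479 and 578 against 129, 154, 113 and 72.4. For both genes every tumor library lay below every node library. The log2 fold changes of TIL against TDLN were -2.69 (SE 0.28) and -2.17 (SE 0.33) in WT and -3.23 (SE 0.20) and -2.50 (SE 0.24) in Yap-cKO, with adjusted p of at most 0.000442. H2-DMb2, one of the paired beta chain genes of H2-DM, went from 2997, 1336, 2682 and 2074 to 451, 439, 336 and 282 CPM in WT, a change of -2.64 (SE 0.32). Its neighbor H2-DMb1 went the other way, from 790, 388, 637 and 570 to 1014, 1275, 1370 and 1108 CPM, without overlap. That difference was 0.95 (SE 0.27, adjusted p = 0.0135) in WT, under the fold limit, and 1.62 (SE 0.25) in Yap-cKO, where it was called. The 2 beta chain genes share sequence, with 31.4% of the 31-base stretches of H2-DMb1 found in H2-DMb2, so some reads may have been assigned to the wrong copy.

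Ciita fell from 478, 761, 549 and 897 CPM in WT TDLN to 101, 370, 164 and 266 in WT TIL (-1.62, SE 0.39), with a change of -1.20 (SE 0.23) in Yap-cKO. The chains under its control differed less, with H2-Aa at -0.56 (SE 0.32), H2-Ab1 at -0.45 (SE 0.34) and H2-Eb1 at -0.31 (SE 0.31) in WT, none past the test. Cd74 was at -0.88 (SE 0.31, adjusted p = 0.0368), under the fold limit. The endosomal proteases rose. Ctss went from 577, 634, 704 and 636 to 2443, 1843, 2380 and 2605 CPM in WT (1.82, SE 0.23), Ctsl from 36.1, 18.5, 36.9 and 95.0 to 691, 318, 545 and 394 (3.33, SE 0.50) and Lgmn from 219, 123, 315 and 268 to 772, 1030, 1596 and 1262 (2.29, SE 0.35). Every tumor library was above every node library for each of the 3 proteases, and the changes in Yap-cKO were 1.71 (SE 0.18), 3.60 (SE 0.42) and 2.82 (SE 0.24). The difference between H2-DMb2 and Ctss in direction is visible in the plot of tumor against node in CD45+CD4-CD8- cells.

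**Figure D2:**
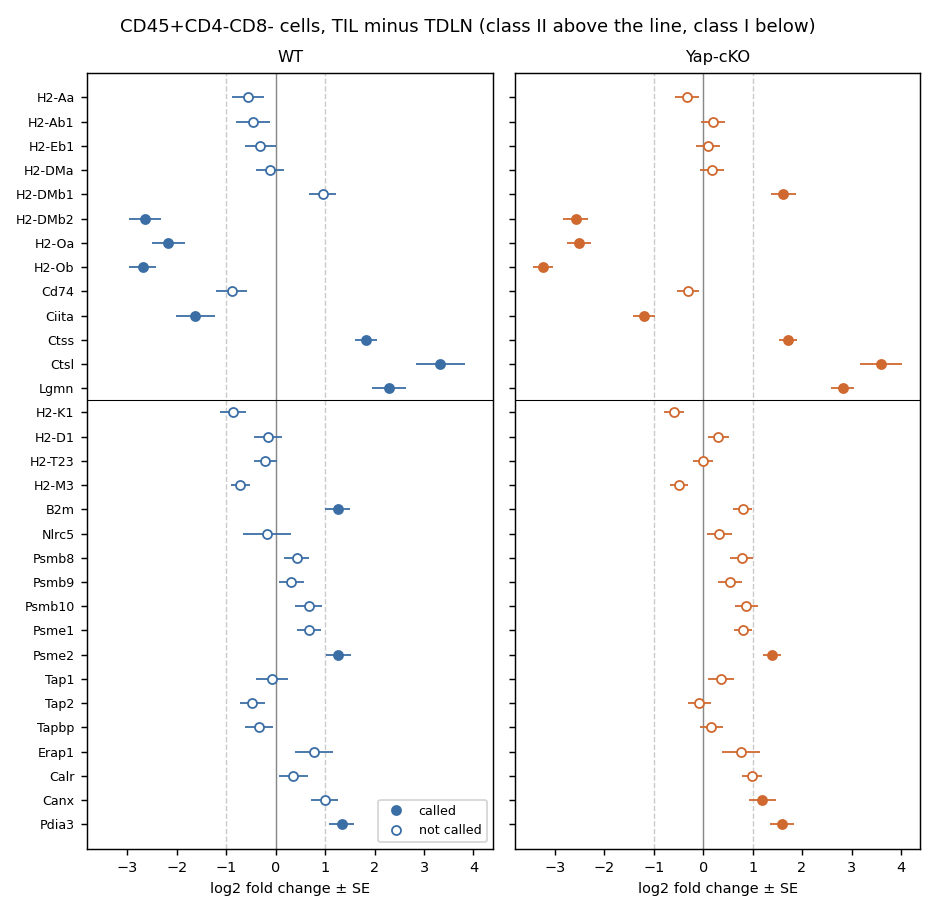
Log2 fold change of TIL against TDLN in CD45+CD4-CD8- cells for the 31 measured members, WT and Yap-cKO side by side, with bars for 1 standard error and filled points for called genes (class II above the line, class I below). H2-DMb2, H2-Oa, H2-Ob and Ciita lay to the left and Ctss, Ctsl and Lgmn to the right in both genotypes.

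Counted over the pathway, 3 class II members rose and 4 fell in WT, against 21.9% of all genes called higher and 18% called lower. In Yap-cKO 4 rose and 4 fell, against 21.8% and 18.5%. The median class II change was -0.45 in WT and 0.09 in Yap-cKO. Of the class I members 3 of 18 rose in WT and 0 fell. These were B2m at 1.25 (SE 0.25), the PA28 subunit Psme2 at 1.27 (SE 0.25) and Pdia3, a disulfide isomerase of the peptide loading complex, at 1.33 (SE 0.26). In Yap-cKO Psme2 (1.39, SE 0.18), Pdia3 (1.59, SE 0.24) and the chaperone calnexin, Canx (1.19, SE 0.27), rose. B2m and H2-K1 moved apart in WT, since B2m went from 1173, 1590, 1554 and 1148 to 3932, 2449, 3042 and 3966 CPM while H2-K1 went from 5106, 2543, 4381 and 3752 to 2110, 2002, 2430 and 2427, a change of -0.86 (SE 0.27, adjusted p = 0.0224) under the fold limit. Psme1, the partner of Psme2 in PA28, read 344, 182, 268 and 285 CPM in WT TDLN and 485, 427, 445 and 431 in WT TIL, without overlap, but its changes of 0.68 (SE 0.24, adjusted p = 0.0382) in WT and 0.81 (SE 0.18) in Yap-cKO stayed under the fold limit. The cell makeup of the sort moved with these results. In WT the B cell marker Cd79a averaged 3500 CPM in TDLN and 506 in TIL, the macrophage markers Csf1r 106 and 1307 and Lyz2 1208 and 22033, and the 9 summed dendritic cell markers 145 and 1204. Their part in the changes of the members was not tested.

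Of the 42 further pathway genes, 6 were called higher and 5 lower in WT TIL (21.9% and 18% of all genes), and 10 higher and 5 lower in Yap-cKO TIL (21.8% and 18.5%). The lysosomal proteases Ctsb (3.68 in WT, 4.59 in Yap-cKO) and Ctsd (2.91 and 3.55) were higher with the member proteases. March8, a ligase that removes class II from the surface, was higher too (2.86 and 3.60), and the class II beta chain H2-Eb2 (-2.78 and -3.39) was lower.

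In T cells the tumor against node comparison was read with the purity of the sort in view. The summed T-lineage genes, 15 in number, averaged 13736 CPM in WT CD4+ TDLN libraries and 5457 in WT CD4+ TIL libraries, and 12357 against 4532 in WT CD8+ libraries, while the melanoma sum was 11.6 and 9.10 CPM in the nodes and 11123 and 10126 in the tumors. In Yap-cKO the T-lineage sum was 12002 against 9676 and 11800 against 8232. With the libraries scaled on the 15 T-lineage genes instead of TMM, genes moved as a whole. Their median log2 fold change of TIL against TDLN was then 1.58 (CD4+) and 1.60 (CD8+) in WT and 0.25 and 0.41 in Yap-cKO. Changes on that scale are also given relative to these medians, the shift of all genes. Taking off the shift undoes most of the rescaling and returns values near TMM. The relative values are therefore not a separate check of the TMM results.

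Among class II members of T cells, H2-Ob fell in every T-cell comparison of tumor with node under TMM. WT CD8+ cells read 60.2, 79.1, 73.3 and 71.2 CPM in TDLN and 6.23, 9.72, 14.7 and 14.7 in TIL, and the Yap-cKO libraries 91.0, 83.8, 79.6 and 88.4 against 24.7, 13.2, 25.2 and 18. The groups did not overlap. The log2 fold changes were -2.62 (SE 0.31) and -2.02 (SE 0.23) in CD8+ cells and -2.09 (SE 0.27) and -2.38 (SE 0.28) in CD4+ cells, WT first. Scaled on T-lineage genes the change in WT CD4+ cells was -0.62 and no longer passed the test (adjusted p = 0.223), and relative to the shift of all genes it was -2.21. H2-DMb1 rose in every T-cell comparison, by 1.95 (SE 0.30) and 2.66 (SE 0.46) in WT and Yap-cKO CD4+ cells and by 1.60 (SE 0.42) and 2.18 (SE 0.42) in CD8+ cells, and these calls held under every alternative. Its levels stayed low, at 4.59, 4.08, 5.42 and 3.69 CPM in WT CD4+ TDLN and 16.1, 22.2, 18.7 and 11.9 in WT CD4+ TIL, against a mean of 1192 CPM in the WT CD45+CD4-CD8- TIL libraries. In T cells and in CD45+CD4-CD8- cells H2-Ob was thus lower and H2-DMb1 higher in tumor than in node, though H2-DMb1 of WT CD45+CD4-CD8- cells did not pass the fold limit.

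H2-Oa fell in CD8+ cells, from 43.7, 57.1, 58.7 and 29.4 CPM in WT TDLN to 8.18, 5.02, 19.1 and 14.8 in WT TIL (-1.98, SE 0.43), with a change of -1.38 (SE 0.28) in Yap-cKO. In CD4+ cells it fell in WT (-1.06, SE 0.35, adjusted p = 0.0257), a call lost without any of several single libraries and turned to 0.50 on the T-lineage scale, -1.08 relative to the shift of all genes. In Yap-cKO CD4+ cells H2-Oa was not called. H2-DMa (-1.37, SE 0.36) and H2-DMb2 (-1.37, SE 0.44) fell in WT CD8+ cells, but on the T-lineage scale they were 0.16 and 0.23, or -1.44 and -1.37 relative to the shift of all genes. The H2-DMb2 call was also lost when WT CD8+ TDLN replicate 3 or WT CD8+ TIL replicate 1, 2 or 4 was left out. H2-DMb2 also fell in Yap-cKO CD8+ cells (-1.80, SE 0.34). Beside the falls of H2-Ob, H2-Oa, H2-DMa and H2-DMb2, the 9 summed B cell markers were lower in TIL as well. They averaged 110 CPM in TDLN and 25.0 in TIL in WT CD8+ cells and 153 and 33.2 in Yap-cKO CD8+ cells. In CD4+ cells they averaged 53.9 and 11.9 in WT and 64.9 and 20.7 in Yap-cKO. Their part in these falls was not tested. Lgmn rose in CD8+ cells, from 3.58, 3.51, 6.34 and 4.05 CPM to 48.6, 84.0, 58.8 and 57.8 in WT (3.85, SE 0.34) and by 4.28 (SE 0.44) in Yap-cKO, the largest changes of any member in the T cells. Ctsl rose by 1.50 (SE 0.39) and 1.15 (SE 0.28) in the same cells, the latter lost with length offsets (0.93) and without Yap-cKO CD8+ TDLN replicate 2 (0.92) or TIL replicate 4 (0.99). In WT CD4+ cells Ctsl rose by 1.81 (SE 0.41) and Lgmn by 1.21 (SE 0.30), and neither was called in Yap-cKO CD4+ cells. Lgmn and Ctsl are also macrophage genes, and the macrophage and monocyte sum beside them averaged 25.0 CPM in WT CD8+ TDLN and 466 in WT CD8+ TIL libraries, and 14.2 and 496 in WT CD4+ libraries, a part that was not tested.

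Class II chains of CD4+ cells were also called higher in tumors. H2-Eb1 was called in WT (1.19, SE 0.34) and in Yap-cKO (1.63, SE 0.44), and H2-Ab1 (1.41, SE 0.43) and Cd74 (1.35, SE 0.42) in Yap-cKO only at this threshold, a difference between genotypes that did not pass the interaction test below. In Yap-cKO CD4+ cells H2-Ab1 read 108, 66.0, 56.6 and 30.1 CPM in TDLN and 203, 94.4, 246 and 153 in TIL, which overlapped. The Yap-cKO calls of H2-Ab1 and Cd74 had adjusted p of 0.0405 and 0.0452 and were each lost without any of 5 or 6 single libraries, and that of H2-Eb1 without TDLN replicate 2 (adjusted p = 0.0646) or 3 (adjusted p = 0.0771). In CD8+ cells no chain was called under TMM. On the T-lineage scale H2-Aa, H2-Ab1 and H2-Eb1 of WT CD8+ cells were called higher, at 1.61, 1.72 and 1.98. Relative to the shift of all genes they were at 0.01, 0.12 and 0.38. In Yap-cKO CD8+ cells H2-Ab1 (1.17) and H2-Eb1 (1.37) were called on that scale and H2-Aa (0.82) was not. Some marker sums of class II-rich cells moved with the CD4+ chains. The sum of the 9 dendritic cell markers ranged from 11.1 to 14.5 CPM in WT CD4+ TDLN and from 47.1 to 99.4 in WT CD4+ TIL libraries, and from 8.71 to 19.6 and from 46.4 to 122 in Yap-cKO. Not every gene of that list rose alike. In WT CD4+ cells Siglech averaged 1.23 CPM in TDLN and 1.27 in TIL, Flt3 1.12 and 2.37 and Cd209a 1.47 and 5.38, each with overlapping libraries. The 10 macrophage and monocyte markers of Yap-cKO CD4+ cells summed to 9.40 to 16.6 CPM in TDLN and 101 to 618 in TIL, while the 9 B cell markers averaged 64.9 and 20.7. In CD8+ cells the dendritic cell sum averaged 15.3 and 103 CPM in WT and 21.9 and 76.3 in Yap-cKO. The part of these markers in the chains was not tested. Over the class, 4 rose and 2 fell in WT CD4+ cells (22.9% of all genes called higher and 14.4% lower), 3 rose and 4 fell in WT CD8+ cells (22.5% and 15.2%), 4 rose and 1 fell in Yap-cKO CD4+ cells (12.4% and 6.07%), and 3 rose and 3 fell in Yap-cKO CD8+ cells (10.9% and 5.01%).

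**Figure D3:**
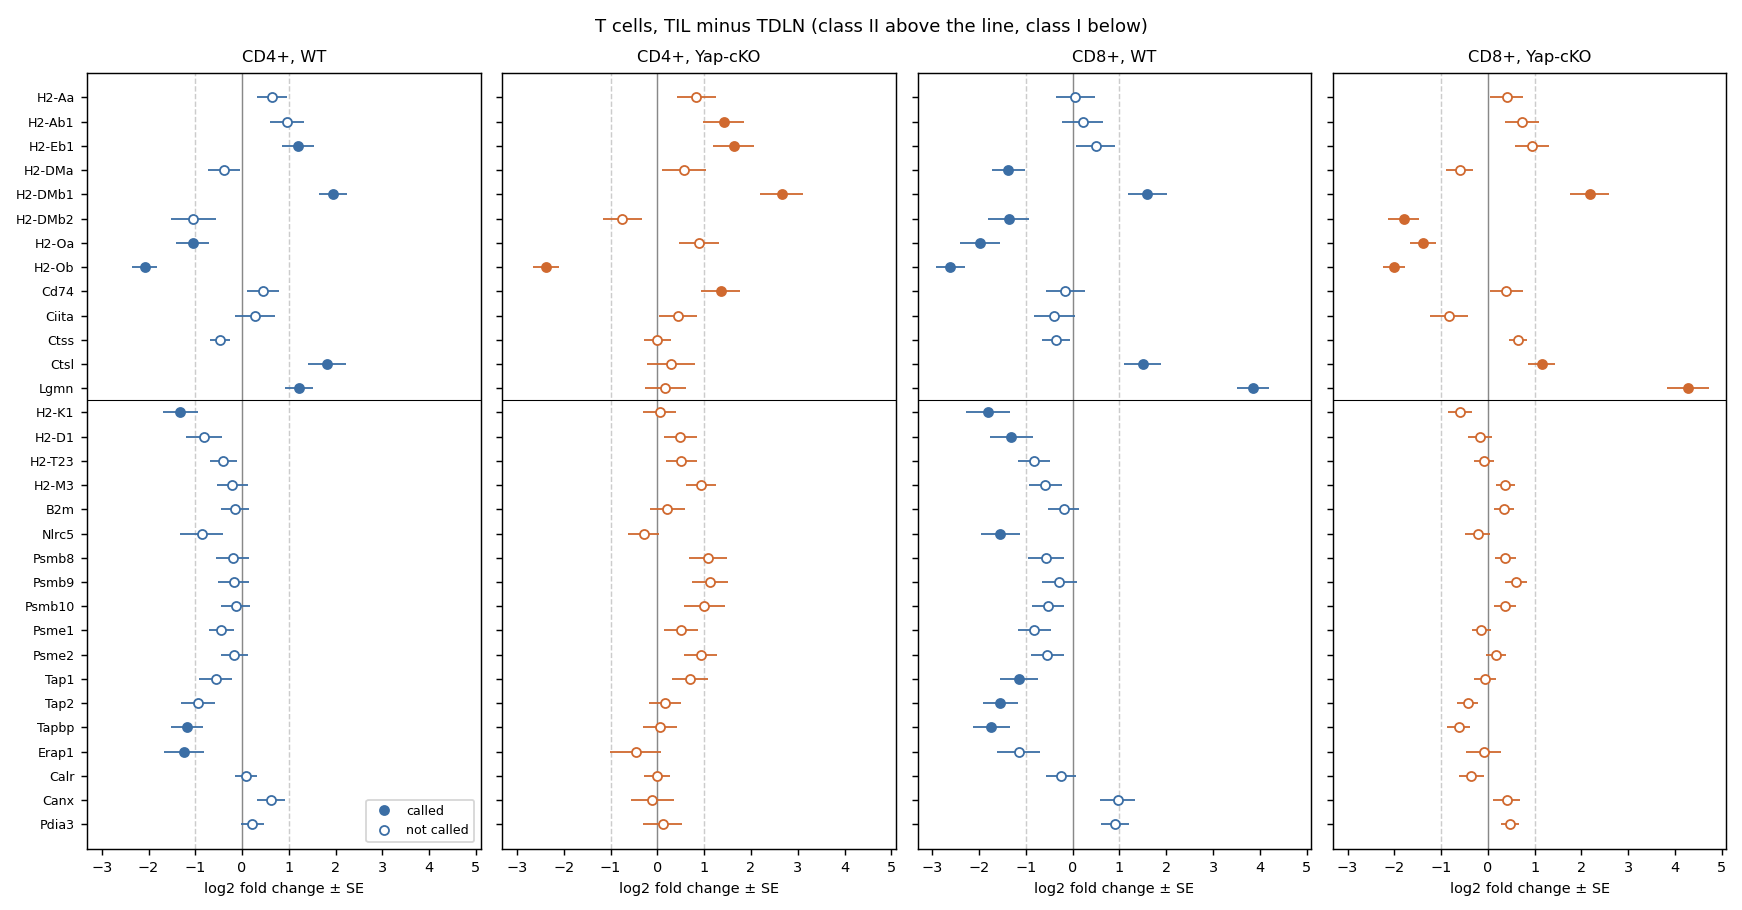
Log2 fold change of TIL against TDLN under TMM scaling for the 31 measured members in CD4+ and CD8+ cells of WT and Yap-cKO mice, with bars for 1 standard error and filled points for called genes (class II above the line, class I below). H2-Ob lay to the left and H2-DMb1 to the right in all 4 panels, and the filled class I points were in WT panels and to the left.

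Some class I members were called lower in tumors than in nodes in WT T cells under TMM. H2-K1 went from 7590, 7240, 9398 and 4010 CPM in WT CD8+ TDLN to 1096, 1243, 3256 and 2364 in WT CD8+ TIL, without overlap. The change was -1.81 (SE 0.46, adjusted p = 0.00819). Tapbp (-1.74, SE 0.40), the TAP subunit Tap2 (-1.54, SE 0.38) and Nlrc5 (-1.54, SE 0.41) fell without overlap, and H2-D1 (-1.31, SE 0.45) and Tap1 (-1.14, SE 0.40) with overlapping libraries. Thus 6 of 18 class I members were called lower in WT CD8+ cells and 0 higher, against 15.2% and 22.5% of all genes. In WT CD4+ cells 3 of 18 were lower and 0 higher, against 14.4% and 22.9% of all genes, so that the lower share was near that of all genes. These were H2-K1 (-1.32, SE 0.38), Tapbp (-1.18, SE 0.35) and Erap1, the aminopeptidase that trims peptides in the endoplasmic reticulum (-1.25, SE 0.43). In Yap-cKO CD4+ and CD8+ cells 0 class I members were called, against 12.4% and 10.9% of all genes higher and 6.07% and 5.01% lower.

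Scaling ended each of these 9 class I calls. On the T-lineage scale H2-K1, Tapbp, Tap2 and Nlrc5 of CD8+ cells were at -0.36, -0.29, -0.08 and -0.25, H2-D1 and Tap1 turned to 0.15 and 0.28, and H2-K1, Tapbp and Erap1 of CD4+ cells turned to 0.041, 0.20 and 0.0055. Taking off the shift of all genes brings values back near TMM. H2-K1 was then at -1.96, Tapbp at -1.89, Nlrc5 at -1.85 and Tap2 at -1.68 in CD8+ cells. In CD4+ cells H2-K1 was at -1.54, Tapbp at -1.38 and Erap1 at -1.58. Tap1, H2-D1 and Erap1 were also lost without 1 of several libraries, as were H2-K1 and Tapbp of CD4+ cells without WT CD4+ TIL replicate 2 (adjusted p = 0.0508 and 0.0513), and Tapbp fell under the fold limit without WT CD4+ TDLN replicate 2 or TIL replicate 1. The median of the 18 class I members was -0.70 in WT CD8+ and -0.30 in WT CD4+ cells under TMM. On the T-lineage scale its sign turned, to 0.76 in WT CD8+ cells (14 of 18 positive) and 1.13 in WT CD4+ cells (18 of 18 positive). Members such as Psmb9 were called higher there, at 1.17 and 1.22. Of all genes, 8192 of 13894 in CD8+ and 8055 of 14009 in CD4+ cells were called higher on that scale. Relative to the shift of all genes, 1.60 and 1.58, the class I median was -0.84 and -0.45. In Yap-cKO it was -0.07 and 0.35 under TMM.

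Of the further pathway genes in T cells, 7 of 40 were called higher and 9 lower in tumors in WT CD4+ cells (22.9% and 14.4% of all genes), and 6 of 40 higher and 12 lower in WT CD8+ cells (22.5% and 15.2%). In Yap-cKO 6 of 40 were higher and 1 lower in CD4+ cells (12.4% and 6.07%), and 6 of 41 higher and 2 lower in CD8+ cells (10.9% and 5.01%). Ifng, the cytokine that induces many of the members, was higher by 3.11 and 4.54 in WT CD4+ and CD8+ cells and by 3.95 and 4.48 in Yap-cKO. The cathepsin Ctsh was higher by 2.78 and 2.14 in WT and by 3.12 and 2.59 in Yap-cKO, and March8 by 4.45, 4.81, 2.34 and 3.39 in the same order. Irf1, a factor induced by interferon, fell by 2.26 in WT CD8+ cells, and Ifngr2, a chain of the interferon gamma receptor, by 2.67 in Yap-cKO CD4+ cells. Ctsz, another cathepsin, rose by 2.26 in WT CD4+ cells and Irf8 by 2.41 in Yap-cKO CD8+ cells.

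Genotype was compared last, within each sorted population and tissue. In CD4+ TILs the class I members were mostly higher in Yap-cKO, with 15 of 18 positive and a median log2 fold change of 0.96, against 0.14 over all genes, but 0 of them were called, against 1.36% of all genes called higher and 6.66% called lower. H2-K1 read 1115, 2366, 3632 and 2627 CPM in WT and 5240, 4092, 8074 and 3906 in Yap-cKO, without overlap (1.25, SE 0.44, adjusted p = 0.111). Psmb9, a catalytic subunit of the immunoproteasome, read 77.7, 137, 211 and 177 against 213, 267, 555 and 281 (1.25, SE 0.42, adjusted p = 0.0967), and Tap1 105, 219, 308 and 301 against 449, 402, 823 and 358 (1.24, SE 0.42, adjusted p = 0.102). The others of the immunoproteasome and PA28, Psmb8, Psmb10, Psme1 and Psme2, lay at 1.10, 0.95, 0.88 and 0.93, none past the test. Groups did not overlap for 8 class I members with Yap-cKO higher and for 1, Calr, with Yap-cKO lower, against 4.34% and 12.7% of all genes. The chaperones calreticulin (Calr, -0.31, SE 0.28), calnexin (Canx, -0.56, SE 0.44) and Pdia3 (-0.04, SE 0.42) were the 3 class I members with a negative value. Relative to the shift on the T-lineage scale, again near TMM, they lay at -0.44, -0.74 and -0.18.

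One class II member was called in CD4+ TILs. H2-Oa read 5.46, 7.07, 10.3 and 3.98 CPM in WT and 17.7, 16.5, 36.7 and 21.9 in Yap-cKO, without overlap, a log2 fold change of 1.93 (SE 0.41, adjusted p = 0.0185). The other class II members moved little or unevenly, with H2-Aa at 0.27 (SE 0.33), H2-Ob, the partner of H2-Oa, at -0.01 (SE 0.32), Ciita at 0.72 (SE 0.44), Ctsl at -1.41 (SE 0.61) and Lgmn at -0.97 (SE 0.48), and their median was 0.36. The H2-Oa call was lost without WT replicate 1 (adjusted p = 0.0643), 2 (0.0665) or 4 (0.0550) or Yap-cKO replicate 4 (0.0553). On the T-lineage scale it was 0.72 (adjusted p = 0.322), and with the Y-linked genes as a covariate 2.58 (adjusted p = 0.298). Without Yap-cKO CD4+ TIL replicate 3, which stood apart in several members, H2-Oa, B2m and Erap1 were called higher and Ctsl and Lgmn lower, while the shares of all genes called rose to 8.38% higher and 14.7% lower.

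In CD8+ TILs 2 members were called higher in Yap-cKO and 0 lower, against 3.03% of all genes called higher and 9.14% lower. Ctss read 91.7, 61.4, 156 and 134 CPM in WT and 252, 281, 283 and 229 in Yap-cKO (1.27, SE 0.29, adjusted p = 0.0244). Erap1 read 32.2, 56.1, 48.6 and 53.0 against 192, 154, 97.9 and 88.5 (1.52, SE 0.28, adjusted p = 0.0184). Neither gene overlapped between genotypes, and 4 members in all had every Yap-cKO library above every WT library, against 7.05% of all genes, with 0 the other way, against 13.5%. The other 2 were B2m (0.86, SE 0.29, adjusted p = 0.0684) and H2-M3 (0.82, SE 0.33, adjusted p = 0.110). Both calls were lost without Yap-cKO CD8+ TIL replicate 2 (adjusted p = 0.0674 for Ctss and 0.0545 for Erap1), and that of Ctss also without WT replicate 1, 2 or 4 or Yap-cKO replicate 4. With the Y-linked covariate neither was called, at 1.10 (adjusted p = 0.177) for Ctss and 1.44 (adjusted p = 0.127) for Erap1. Without WT CD8+ TIL replicate 3, whose class I levels were near those of Yap-cKO, 9 members were called, each higher in Yap-cKO, against 8.01% of all genes higher and 10.7% lower: Ctss, H2-K1, H2-D1, H2-M3, B2m, Nlrc5, Tap1, Tap2 and Erap1. That replicate had the lowest melanoma sum (3897 CPM) and the highest T-lineage sum (6921 CPM) of the WT CD8+ TIL libraries, a part that was not tested. With every library kept, the medians were 0.75 for class I and 0.67 for class II, against 0.08 over all genes. The 3 chaperones were again negative, at -0.34 (Calr), -0.43 (Canx) and -0.21 (Pdia3), none past the test.

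**Figure D4:**
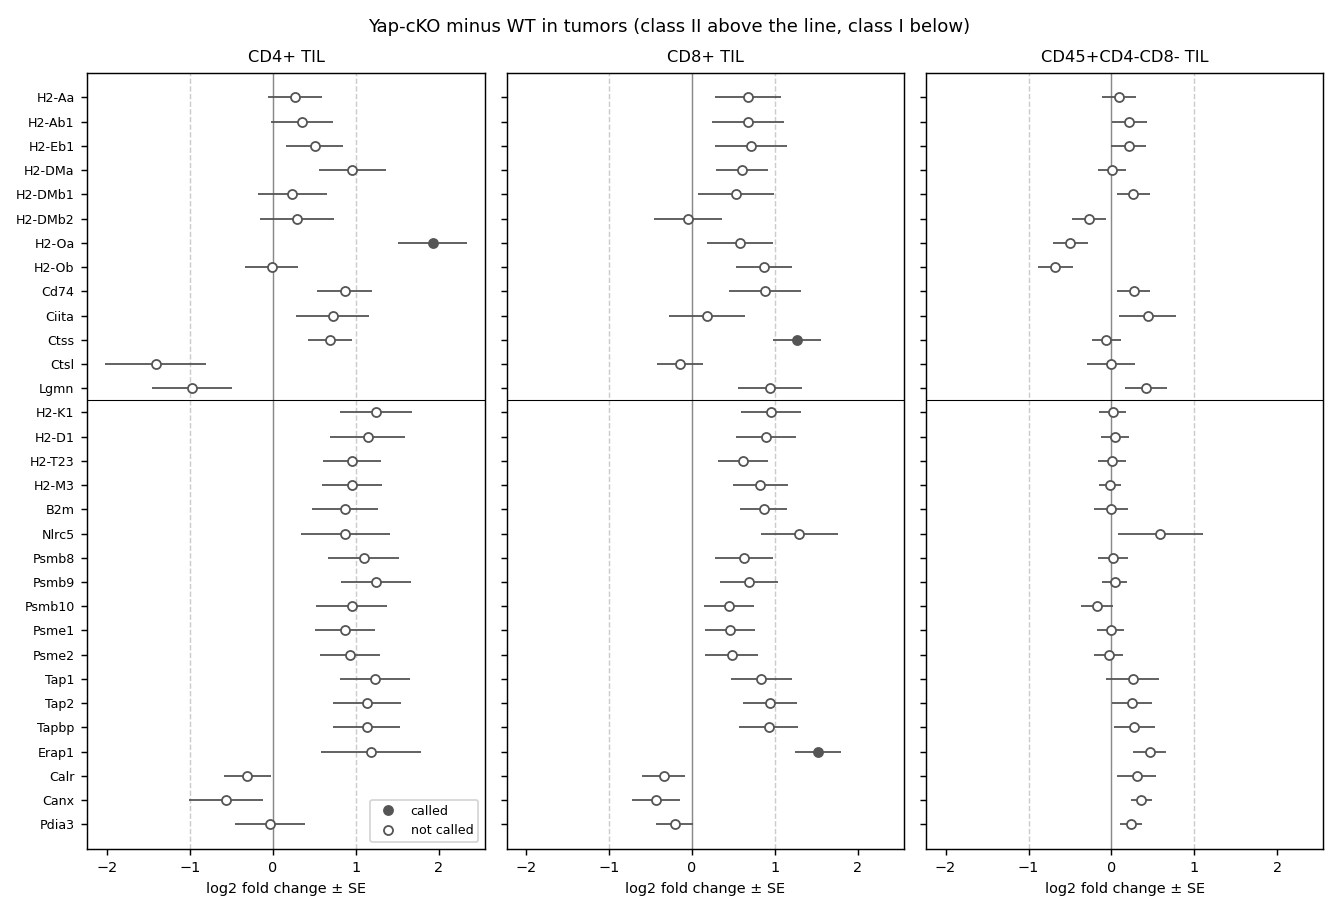
Log2 fold change of Yap-cKO against WT under TMM scaling for the 31 measured members in CD4+, CD8+ and CD45+CD4-CD8- TILs, with bars for 1 standard error and filled points for called genes (class II above the line, class I below). H2-Oa was the filled point in CD4+ cells, Ctss and Erap1 were filled in CD8+ cells, and the CD45+CD4-CD8- points lay between -0.68 and 0.59.

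Other cells' markers moved with genotype in the T-cell TIL libraries. The melanoma sum averaged 11123 CPM in WT and 1057 in Yap-cKO CD4+ libraries and 10126 against 1049 in CD8+ libraries, the endothelial sum 306 against 109 and 597 against 72.6, and the fibroblast and pericyte sum 335 against 24.7 and 272 against 8.87. The T-lineage sum went the other way, at 5457 in WT and 9676 in Yap-cKO CD4+ libraries and at 4532 and 8232 in the CD8+ ones. None of these sums overlapped between genotypes, with an exact permutation p of 0.0286 each, two-sided, the smallest that 4 against 4 libraries can give, and 0.135 after adjustment over 66 tests. In CD8+ TILs the macrophage and monocyte sum averaged 466 CPM in WT and 1375 in Yap-cKO, again without overlap (exact permutation p = 0.0286, adjusted 0.135), beside Ctss, which macrophages express highly. In CD4+ TILs it averaged 496 CPM in WT and 247 in Yap-cKO with overlap, beside Ctsl and Lgmn. Under TMM the median of all genes in Yap-cKO against WT was 0.14 in CD4+ and 0.08 in CD8+ TILs. Scaled on T-lineage genes, it was -1.10 and -1.08. On that scale the class I medians were -0.01 and -0.19. They lay 1.09 and 0.89 above the shift, which restates the TMM result and is not a separate check. Ctss and Erap1 of CD8+ cells were at 0.29 (adjusted p = 0.520) and 0.39 (adjusted p = 0.465) on the same scale. The part of the other cells in the differences between genotypes was not tested beyond this scaling. On the T-lineage scale Ctsl, Lgmn and Calr were called lower in CD4+ and Ctsl, Calr, Canx and Pdia3 in CD8+ Yap-cKO TILs. On that scale 24.1% and 39.5% of all genes were called lower in CD4+ and CD8+ cells and 0.12% and 0.0425% higher, so the members' share of lower calls was below that of all genes. The plot of class I levels and marker sums by library sets these values beside each other.

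**Figure D5:**
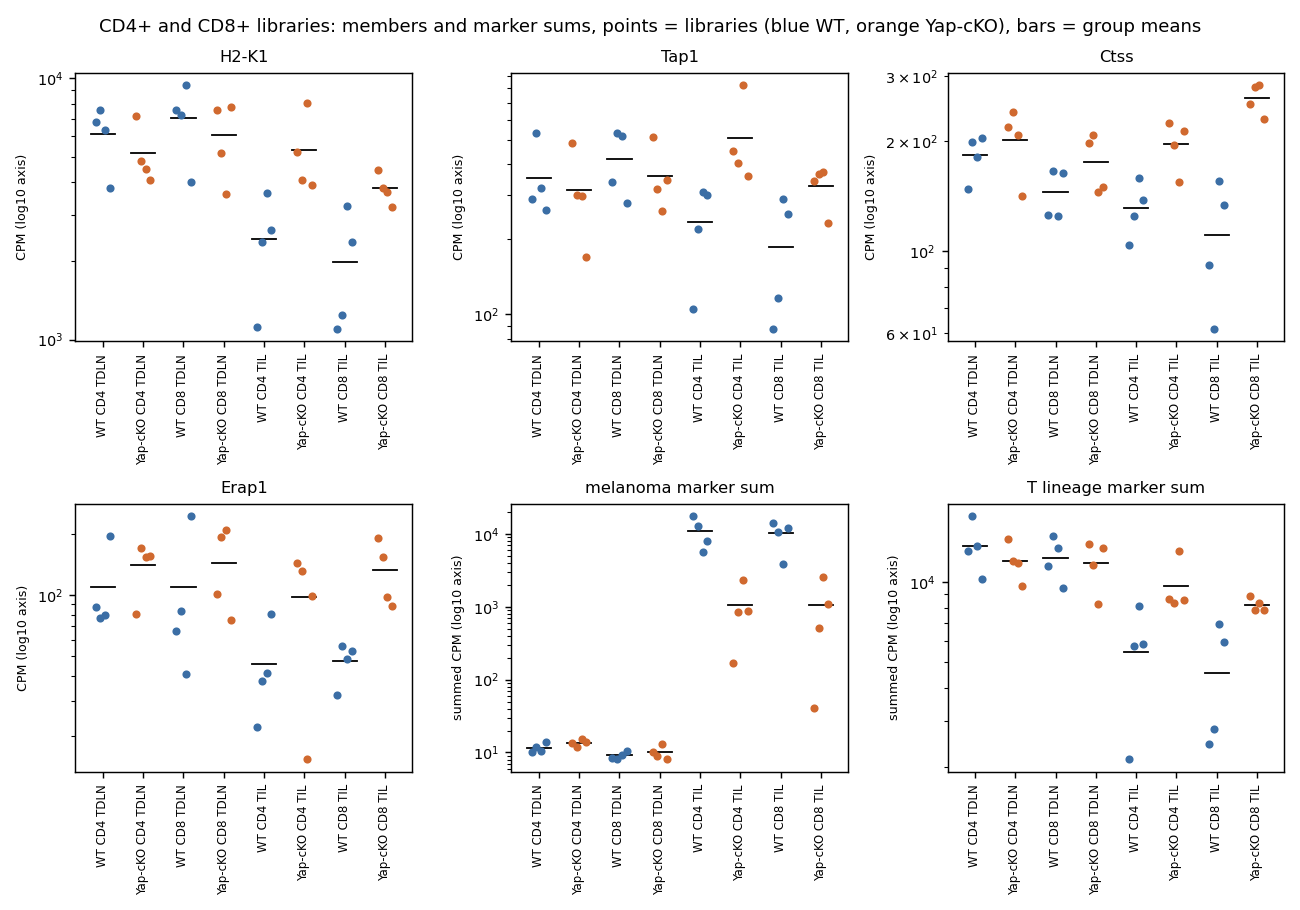
CPM (log10 axis) of H2-K1, Tap1, Ctss and Erap1 and the summed CPM of melanoma and T-lineage markers in each CD4+ and CD8+ library, with points for libraries (blue WT, orange Yap-cKO) and bars for group means. Within each cell type, WT TIL libraries had the highest melanoma sums and the lowest T-lineage sums, and in TIL the Yap-cKO means of all 4 members were above the WT means.

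In CD45+CD4-CD8- TILs 0 members were called by edgeR and by DESeq2, against 0.991% of all genes, and 4 had an unadjusted p under 0.05. These were H2-Ob at -0.68 (SE 0.21), H2-Oa at -0.50 (SE 0.21), Erap1 at 0.46 (SE 0.20) and Canx at 0.36 (SE 0.13). H2-Ob read 256, 256, 171 and 153 CPM in WT and 112, 132, 168 and 123 in Yap-cKO, with overlap. The B cell sum beside it averaged 1547 CPM in WT and 647 in Yap-cKO, and the dendritic cell sum 1204 and 1707, both with overlap. Of the marker sums only melanoma did not overlap, at 1530 CPM in WT and 336 in Yap-cKO (exact permutation p = 0.0286, adjusted 0.135). Yap1 averaged 4.14 and 1.83 CPM, also without overlap. The part of the other cells in these values was not tested. In TDLN no member was called in any cell type by edgeR or DESeq2, and 0 had an unadjusted p under 0.05. The shares of all genes called were 0.0462% in CD4+, 0.0158% in CD8+ and 0.0596% in CD45+CD4-CD8- cells. The fold changes of members lay between -0.59 and 0.45 in CD4+, between -0.42 and 0.65 in CD8+ and between -0.41 and 0.48 in CD45+CD4-CD8- cells of the node.

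Of the further pathway genes in T-cell TILs, 0 of 40 were called higher and 2 lower in Yap-cKO CD4+ cells (1.36% and 6.66% of all genes), and 4 of 40 higher and 0 lower in CD8+ cells (3.03% and 9.14%). The 2 lower in CD4+ cells were the lysosomal membrane gene Lamp1 (-1.24, adjusted p = 0.0371) and March8 (-2.68, adjusted p = 0.0066). March8 read 29.1, 36.7, 17.9 and 18.6 CPM in WT and 2.47, 5.65, 3.18 and 3.25 in Yap-cKO. The melanoma sums given above were also higher in the WT TIL libraries, and their part in the March8 values was not tested. Jak2 (1.54) and Jak1 (1.33), the kinases of the interferon gamma receptor, were higher in Yap-cKO CD8+ TILs, with Ctsh (1.32) and the class I gene H2-T24 (1.31).

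Whether genotype differences depended on tissue was tested by the interaction of genotype and tissue over the 16 libraries of a cell type. No member passed in CD4+ cells (1.36% of all genes called), CD8+ cells (0.422%) or CD45+CD4-CD8- cells (0%). In CD4+ cells 13 members had an unadjusted p under 0.05, and DESeq2 called 1. The value of H2-Oa was 2.08 (SE 0.56, adjusted p = 0.0711), of H2-K1 1.49 (SE 0.52, adjusted p = 0.171) and of H2-D1 1.44 (SE 0.54, adjusted p = 0.208). In CD8+ cells 7 members had an unadjusted p under 0.05, with DESeq2 calling 0, and Nlrc5 at 1.29 (SE 0.52, adjusted p = 0.248) and H2-K1 at 1.17 (SE 0.53, adjusted p = 0.298) were among the larger. In CD45+CD4-CD8- cells 0 members had an unadjusted p under 0.05 and DESeq2 called 0. These fits share their node and tumor libraries with the comparisons above.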

How the data were processed

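RNA of sorted CD4+, CD8+ and CD45+CD4-CD8- cells was sequenced by the authors from SMART-Seq v4 libraries. Reads were quantified with Salmon 0.9.1 against mm10 transcripts (FastQC and Trimmomatic are also named, per the submitters' processing notes). The authors deposited for each library an estimated count of reads per transcript, without normalization. They also deposited a TPM per transcript, scaled within a library by effective length and depth, and the effective length itself. The authors' later steps, tximport and DESeq2, are not in the files used here.

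Transcripts were matched without version to GENCODE M21 (111787 of 112092, with 0.0488% to 0.180% of a library's counts unmatched), and estimated counts were summed over 34932 genes and rounded. A gene entered a fit with 10 or more counts in 4 or more of its libraries. The main test was that of edgeR 4.0.16, run in R 4.3.3 (TMM, quasi-likelihood fit and F test, no covariate). Fits used the 8 libraries of a genotype or tissue comparison, the 12 WT libraries of a tissue for cell types and the 16 of a cell type for interactions. P-values were Benjamini-Hochberg adjusted over all tested genes, and a call needed both an adjusted p below 0.05 and a difference beyond 1 on the log2 scale, the limits of the study's methods. The share of all genes called is given for each comparison. Standard errors were derived from the fold change and the F statistic. CPM used TMM factors over all 48 libraries, and deposited TPM values were summed per gene to compare genes. Summed markers were tested between genotypes by exact permutation. For a single comparison of each kind (genotype, tissue, cell type and interaction), the edgeR and DESeq2 fits were also run on simulated counts.

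All 32 members were to be named, by values or by ranges. For the other 42 pathway genes the text gives counts and at most the 4 called genes with the largest change in a comparison, and for marker lists their sums and defining genes. Members, lists and tests were chosen with earlier results of these data known. Of 72 pairs of libraries within groups, 0 agreed within sampling noise. The alternatives were DESeq2 1.42.0, no count filter, the replicate number as a block, adjusted p alone, transcript length offsets, leaving out each replicate, a Y-linked covariate and scaling on 15 T-lineage genes. The last was added for tissue and interaction comparisons after seeing the data. Same-numbered libraries deviated together (every correlation above 0.1) among the 3 cell types of WT TIL (0.112 to 0.710) and between CD4+ and CD8+ cells of WT TDLN (0.384 to 0.786), not between these and the CD45+CD4-CD8- cells of WT TDLN or in any genotype or tissue comparison. Printed cell type values come from the fit without a block, and the blocked value is given where it changed a call (15 calls to 17 in WT TIL, 15 to 14 in WT TDLN). The labels do not state a pairing. Sequences came from RefSeq promoters on GRCm38.p6, and 0 tables that mix samples were used. The levels of Ifi30 and Xist were not analysed here.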

Additional observations from a re-analysis of the deposited data

Results flagged for a closer look

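In 18 of 372 groups of 4 libraries (4.84%) 1 library of a member stood far from the other 3 by Dixon's criterion, about the 1 in 20 that chance gives. Of these, 5 were in Yap-cKO CD4+ TIL replicate 3. There H2-M3 (123 CPM) and Psmb10 (432 CPM) were high, and Erap1 (15.4 CPM), Canx (67.5 CPM) and Pdia3 (167 CPM) were low. WT CD4+ TDLN replicate 2 was high for H2-M3 (92.5 CPM), Psmb8 (753 CPM) and Psmb9 (272 CPM). WT CD45+CD4-CD8- TIL replicate 1 was low for Calr (694 CPM) and Canx (413 CPM).

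The other libraries were each far from their group in 1 member. Low values were H2-Ob in Yap-cKO CD45+CD4-CD8- TDLN replicate 1 (991 CPM), Erap1 in Yap-cKO CD4+ TDLN replicate 1 (80.8 CPM) and Calr in Yap-cKO CD8+ TIL replicate 4 (276 CPM). High values were Ciita in WT CD4+ TIL replicate 2 (6.77 CPM), Lgmn in Yap-cKO CD8+ TDLN replicate 4 (8.10 CPM), H2-T23 in WT CD45+CD4-CD8- TIL replicate 4 (666 CPM), Tapbp in Yap-cKO CD45+CD4-CD8- TIL replicate 1 (1073 CPM) and Erap1 in WT CD4+ TDLN replicate 4 (196 CPM).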

How the results depend on the processing

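Of 87 calls of members over the 17 comparisons, 60 held under every alternative tried for their comparison and 27 were lost under at least 1. Class II members higher in CD45+CD4-CD8- than in T cells held throughout. In genotype comparisons of CD4+ TILs (1 member called) DESeq2 called 5, the Y-linked covariate 0 (H2-Oa at 2.58) and T-lineage scaling 3, and leaving out a replicate gave 0 to 5. In CD8+ TILs (2 called) the replicate block gave 0, with Ctss at 1.35 (adjusted p = 0.0993) and Erap1 at 1.47 (adjusted p = 0.0982), the Y-linked covariate 0 (1.10 and 1.44) and T-lineage scaling 4, and leaving out a replicate 0 to 9. For tumor against node, T-lineage scaling raised WT CD4+ from 9 to 20 and Yap-cKO CD4+ from 5 to 13, since it moved all genes, and leaving out a replicate gave 5 to 11 and 2 to 8. Adjusted p alone gave 16 for 10 in WT and 18 for 11 in Yap-cKO CD45+CD4-CD8- cells and 24 for 15 in the WT TIL cell type comparison. The interaction in CD4+ cells (0) gave 1 with DESeq2, 3 with T-lineage scaling and 0 to 1 without a replicate, and in CD8+ cells (0) T-lineage scaling gave 1. Calls that reversed did so on the T-lineage scale, in WT tumor against node: H2-Oa (0.50), H2-K1 (0.041), Tapbp (0.20) and Erap1 (0.0055) of CD4+ cells and H2-DMa (0.16), H2-DMb2 (0.23), H2-D1 (0.15) and Tap1 (0.28) of CD8+ cells. Where another setting changed a call, the cause was not tested.

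Same-numbered libraries of the genotype and tissue comparisons did not deviate together throughout (correlations -0.690 to 0.528). In tumor against node of WT CD4+ cells every correlation was positive (0.0186 to 0.452). Y-linked genes were near 0 in replicate 4 of every WT cell type in both tissues. The Y-linked values of WT thus recurred by number in tumor and node, while the correlations did not hold throughout. The labels state no pairing, so whether a number marks the same mouse in both tissues cannot be decided here. The main tumor against node fits took no pairing into account. With the number as a replicate block, the counts of members called were 1 in CD4+ TILs and 12 in WT CD4+ and 12 in WT CD8+ tumor against node. Genotype and Y-linked genes overlap in all but WT replicate 4, so the covariate leaves little to separate them. A member at 3 counts or under, 0.124 to 0.237 CPM, would not be told from 0, and all 31 measured members had group means above this.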

Other observations

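Genes whose level followed the class II chains were ranked by Pearson correlation of log2(CPM + 0.5) with the mean of H2-Aa, H2-Ab1 and H2-Eb1, as a description over libraries that share groups. Over all 48 libraries these were Napsa, an aspartic protease (r = 0.995), Cyp4f18 (0.985), Fgd2 (0.982) and Unc93b1 (0.982), the last a chaperone of endosomal Toll-like receptors. Over the 32 T-cell libraries Napsa (0.896), Unc93b1 (0.812) and Wnt11 (0.765) were nearest. For the mean of the 5 class I heavy chain and light chain genes (H2-K1, H2-D1, H2-T23, H2-M3 and B2m) Laptm5 (0.886) and Coro1a (0.881) were nearest over 48 libraries. Over the 32 T-cell libraries Rac2 (0.965), H2-Q7 (0.962) and H2-T22 (0.961) were nearest, of which H2-Q7 and H2-T22 are class I genes outside the member list.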
